A study of Mus musculus with 6 samples.

Results

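The intracellular calcium store channels are described here through 10 genes of the 24421 listed in each library, found by their symbols: the IP3 receptors Itpr1, Itpr2 and Itpr3, the ryanodine receptors Ryr1, Ryr2 and Ryr3, the store calcium sensors Stim1 and Stim2, and the entry channels Orai1 and Orai2. All 10 were listed in all 6 libraries, and all 10 had a mean of at least 1 and were tested. RNA-seq was done on cells of the olfactory bulb sorted for TurboRFP from adult male mice 4 weeks after a bulb injection of AAV-GFAP-iCre-P2a-TurboRFP, with 3 control libraries (labelled WT; C57BL/6J) and 3 Sox9 KO libraries (Sox9fl/fl). Both groups received the virus, which places the Cre recombinase and TurboRFP under the GFAP promoter. The sort was thus aimed at cells in which this promoter and the virus were active. Purity was not checked by a second sort. The paper states that it relied instead on known cell type markers in the RNA-seq, and marker values are given below. The labels give C57BL/6 as the strain of both groups. Values are normalized counts, that is reads per gene divided by 1 size factor per library. A gene is called higher or lower at an adjusted p (Benjamini-Hochberg, over all genes tested in limma) under 0.05 and a change of at least 1.5-fold.

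In resting cells the endoplasmic reticulum holds calcium at a far higher concentration than the cytosol. Receptors coupled to Gq proteins activate phospholipase C, which makes the messenger IP3, and IP3 opens the IP3 receptors in the store membrane. Ryanodine receptors, their larger relatives, open on a rise of cytosolic calcium. When the store empties, STIM proteins in its membrane sense the loss of calcium and gather at contacts with the plasma membrane, where they open the ORAI channels, and SERCA pumps refill the store. In astrocytes, store release through the type 2 IP3 receptor, the product of Itpr2, is known as the main source of calcium signals in the cell body. The study also imaged calcium events of bulb astrocytes in slices, from other mice.

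Libraries held from 18242129 to 86906527 reads assigned to genes. Sox9, the deleted gene, stood between 4921 and 6562 normalized counts in the controls and between 52.6 and 64.3 in the KO libraries (log2 fold change −6.54, SE 0.15, limma adjusted p = 2.5e-09). Markers of astrocytes, the cell type at which the sort was aimed, and of other cell types moved with the groups. All 12 astrocyte markers fixed for the check were called lower in KO, and their summed level went from between 544648 and 610700 normalized counts in the controls to between 39006 and 50942 in KO. All 12 markers of microglia and macrophages were called higher, with a sum between 172334 and 194536 in the controls and between 615239 and 716045 in KO, so that in the KO libraries it stood above the astrocyte sum. Of 12 neuron markers 11 were called lower, and their sum went from between 24107 and 30484 to between 3646 and 6137. No marker of these 3 lists was at 0 in all libraries. In a bulk sample, fewer cells of a type and less RNA per cell cannot be told apart, and the part of these marker shifts in the changes of the store channels was not tested. The 10 store channel genes are not markers of these lists.

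The store channels did not move together. By subfamily, the 3 ryanodine receptor genes were all lower in Sox9 KO, the IP3 receptor genes split into 1 lower, 1 higher and 1 that was not called, and of the STIM and ORAI genes Stim2 and Orai1 were called higher while Stim1 and Orai2 were not called. Of the 10 genes, 4 were called lower (Itpr1, Ryr1, Ryr2 and Ryr3) and 3 higher (Itpr3, Stim2 and Orai1). Over all 18413 genes tested, 28.8% were called lower, 22.2% higher and 51.0% in either direction. On recovered reads edgeR called 27.2% of genes lower, 23.6% higher and 50.7% in either direction, and DESeq2 27.7%, 21.7% and 49.4%, and both gave the same calls for the 10 genes. At an adjusted p under 0.05 without a fold threshold, 8 of the 10 genes passed in limma, beside 61.3% of all. The KO libraries did not overlap the controls in 8 of the 10 genes, 4 above and 4 below them, where the shares over all genes were 32.4% above, 34.7% below and 67.2% in either direction. The median log2 fold change of the 10 genes was 0.20, against −0.07 over all genes tested. In a comparison in which most genes moved, these counts are not far from the background, and nothing is read from them about the set.

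**Figure D1:**
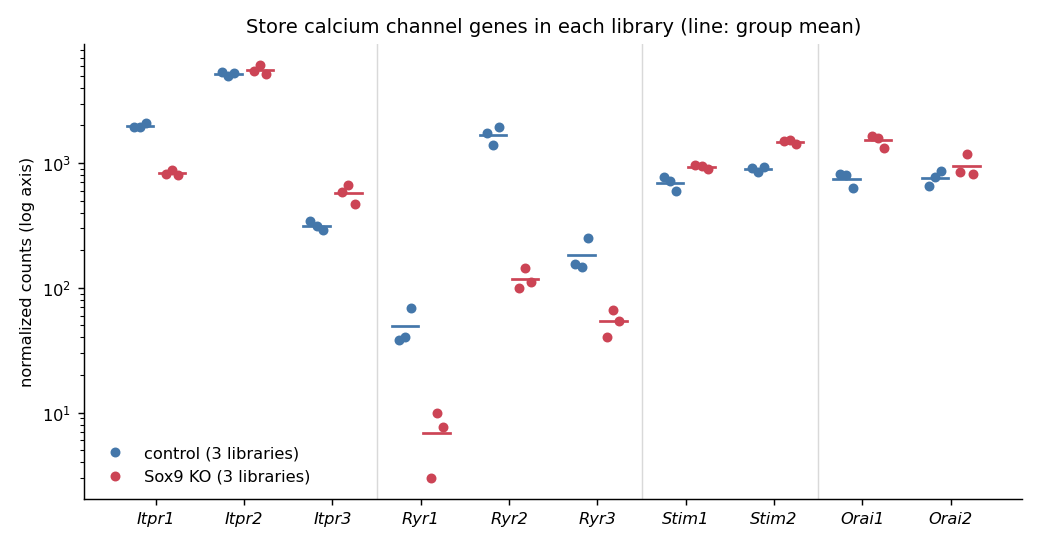
Normalized counts (log axis) of the 10 store channel genes in the 3 control and 3 Sox9 KO libraries, 1 point per library, with a line at each group mean. The 3 Ryr genes and Itpr1 sit lower in every KO library, Itpr3, Stim1, Stim2 and Orai1 sit higher in every KO library, and Itpr2 and Orai2 overlap.

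Among the IP3 receptor genes, Itpr2, the form best known from astrocytes, had the highest level of the 3 in both groups. It stood at 5369, 4985 and 5274 normalized counts in control replicates 1, 2 and 3 and at 5463, 6145 and 5189 in KO replicates 1, 2 and 3. The KO and control libraries overlapped. The log2 fold change was 0.10 (95% confidence interval −0.10 to 0.30, limma adjusted p = 0.362), an interval that ends short of 1.5-fold on both sides. Its sign depended on the scaling of the libraries. It was −0.29 after quantile normalization (limma adjusted p = 0.020, below 1.5-fold) and −0.14 with libraries scaled to the same total (limma adjusted p = 0.283). In the same KO libraries astrocyte markers were lower and microglia and macrophage markers higher, and their part in the Itpr2 level was not tested.

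Itpr1, the form known for its high level in Purkinje cells and other neurons, was lower in KO. Its control libraries had 1949, 1950 and 2093 normalized counts, and its KO libraries 815, 875 and 799. The replicates of each group lay close together and the groups were far apart. The mean went from 1998 ± 82.8 to 830 ± 40.1 (± SD over 3 libraries per group), and Itpr1 fell by 1.27 on the log2 scale (SE 0.10, limma adjusted p = 1.3e-06). Itpr3, the form known from epithelial and taste cells, had the lowest level of the IP3 receptors in the controls and went the other way. Its values were 342, 311 and 290 in the controls and 585, 665 and 468 in KO. Every KO library was above every control, and KO replicate 2 was the highest. The log2 fold change was 0.85 (SE 0.16, limma adjusted p = 0.00098). With libraries scaled to the same total without the ribosomal RNA precursor Rn45s, Itpr3 stayed higher, by 0.53, and no longer reached 1.5-fold. In the annotation (GENCODE M21, GRCm38), Itpr1 spans chr6:108213096-108551109 and Itpr2 chr6:146108299-146502223 on the same chromosome, and Itpr3 spans chr17:27057304-27122223. Itpr1 and Itpr3 share exon sequence with unlisted genes on the opposite strand, 181 and 108 bp in Itpr1 and 233 bp in Itpr3. Whether the counting used strand is not given in the sources used, so reads of such partners cannot be told apart from their own.

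The ryanodine receptor genes showed the largest falls of the 10. They are long genes on separate chromosomes, Ryr1 at chr7:29003344-29125179, Ryr2 at chr13:11553102-12106945 and Ryr3 at chr2:112631355-113217096 (GRCm38). Ryr2, the heart form, which is also the main form in the brain, had 1738, 1401 and 1931 normalized counts in the controls and 100.3, 142.9 and 110.9 in KO. Even the lowest control stood far above the highest KO library. The mean was 1690 ± 268 in control and 118 ± 22.2 in KO (± SD over 3 libraries per group), a ratio of 14.3 of control to KO and a log2 fold change of −3.83 (SE 0.18, limma adjusted p = 4.9e-08). For comparison, the summed astrocyte markers were 13.04 times and the summed neuron markers 6.00 times as high in control as in KO.

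Ryr3, the form described in several brain regions and smooth muscle, drew 106, 212 and 158 reads from control replicates 1 to 3 and 41, 167 and 36 from KO replicates 1 to 3. Scaled for depth, these were 155, 146 and 249 normalized counts in control and, in KO, 40.7, 65.9 and 54.7. The deep KO replicate 2 had as many reads as a control, and its scaled level was still below all of them. Ryr3 fell by 1.73 on the log2 scale (SE 0.30, limma adjusted p = 0.00051). Its exons share 916 bp with those of Aven on the opposite strand. Aven, a regulator of cell death, averaged 70.8 ± 9.69 normalized counts in control, against 93.8 ± 14.3 in KO (± SD over 3 libraries per group), and was not called (log2 fold change 0.40).

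Ryr1, the skeletal muscle form, was close to the limit of what these libraries can show. It had 26, 59 and 44 reads in the controls and 3, 25 and 5 reads in KO, or 37.99, 40.6 and 69.4 against 2.98, 9.87 and 7.60 normalized counts. The groups did not overlap. The log2 fold change of −2.75 had the widest error of the 10 genes (SE 0.51, 95% confidence interval −3.89 to −1.62, limma adjusted p = 0.00086). It was −2.33 without KO replicate 1, −2.49 without control replicate 3 and −1.94 after quantile normalization. Exons of Ryr1 share 864 bp with an antisense gene. All 3 ryanodine receptor genes were highest in control replicate 3 among the controls and in KO replicate 2 among the KO libraries, as were Itpr1, Stim2 and Orai2. Of all 10 genes, 6 were highest in control replicate 3 and 8 in KO replicate 2 within their group, so this order is not particular to the ryanodine receptors. These are also the libraries with the highest summed neuron markers of their group, 30484 and 6137 normalized counts. KO replicate 2 had the highest astrocyte sum (50942) and microglia and macrophage sum (716045) of the KO libraries as well. Control replicate 3 had the highest of neither in its group. The part of neuronal or other RNA in the ryanodine receptor levels was not tested.

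Sox9 is a DNA-binding factor, and after the fold changes were seen the promoters were read for the core letters of SOX family binding. These were ACAAT and ACAAAG, on both strands, in the 250 bases before 1 transcript start per gene in a RefSeq table (GRCm38.p6). That start is not always the outermost of the gene. By RefSeq spans, the windows of Itpr2, Ryr1 and Orai2 reach into the gene, while those of Stim1 and Itpr3 lie wholly inside it. By GENCODE spans, the windows of Ryr1, Orai2, Stim1 and Stim2 reach into the gene, and those of Itpr2 and Itpr3 do not. The table of promoters held 8 of the 10 genes and no entry for Itpr1 and Ryr3. Of these 8 windows 2 held 1 of the motifs, that of Ryr1 (ACAAT) and that of Orai2 (ACAAAG), where 38.8% of all 32851 promoter windows of this length held at least 1. The windows of Ryr1 and Ryr2, which were called lower, and of Orai1 and Orai2, of which the first was called higher, are shown 5′ to 3′ with the motifs of either strand in capitals.
Ryr1, chr7:29125152-29125401, minus strand: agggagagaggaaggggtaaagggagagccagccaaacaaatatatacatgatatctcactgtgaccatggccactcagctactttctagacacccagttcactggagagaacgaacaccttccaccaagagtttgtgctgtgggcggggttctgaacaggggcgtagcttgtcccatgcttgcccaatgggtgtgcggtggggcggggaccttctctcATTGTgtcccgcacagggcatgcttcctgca
Ryr2, chr13:12106946-12107195, minus strand: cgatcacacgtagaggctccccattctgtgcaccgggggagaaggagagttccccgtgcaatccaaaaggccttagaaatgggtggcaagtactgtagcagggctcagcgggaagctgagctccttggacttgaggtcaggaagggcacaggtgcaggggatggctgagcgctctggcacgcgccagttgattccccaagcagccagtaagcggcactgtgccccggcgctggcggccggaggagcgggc
Orai1, chr5:123014824-123015073, plus strand: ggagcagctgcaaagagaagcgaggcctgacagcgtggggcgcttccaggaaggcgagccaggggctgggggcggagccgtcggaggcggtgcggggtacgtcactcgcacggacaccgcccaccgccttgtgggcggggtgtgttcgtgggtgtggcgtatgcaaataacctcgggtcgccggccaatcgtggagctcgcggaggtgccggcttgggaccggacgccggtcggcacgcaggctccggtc
Orai2, chr5:136170657-136170906, minus strand: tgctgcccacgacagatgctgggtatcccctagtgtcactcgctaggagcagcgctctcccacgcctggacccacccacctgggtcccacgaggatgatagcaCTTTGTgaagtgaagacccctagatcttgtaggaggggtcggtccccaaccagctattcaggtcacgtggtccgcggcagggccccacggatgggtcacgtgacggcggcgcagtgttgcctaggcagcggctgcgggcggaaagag
The window of Ryr2, the gene with the largest fall, held neither motif, and its GC content was 63.2%, against 54.8% in Ryr1, 70.8% in Orai1 and 63.6% in Orai2. A missing motif says only that these letters are not in this window, and a match is not a binding site.

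On the deposited values, both calcium sensors were above control in every KO library. Stim1, the sensor that opens the entry channels on strong depletion, had 769, 723 and 597 normalized counts in the controls and 966, 945 and 898 in KO. Every KO library was above every control, yet the step was small beside the distance between the groups of other members. The mean went from 696 ± 88.7 to 936 ± 34.9 (± SD over 3 libraries per group), with a log2 fold change of 0.43 (95% confidence interval 0.16 to 0.71, limma adjusted p = 0.011), which is below 1.5-fold, so Stim1 was not called. The size of this rise depended on the scaling. It was 0.54 after quantile normalization, 0.19 with libraries scaled to the same total and 0.11 with that total taken without Rn45s. Stim2, known for responding to small drops in store calcium and for setting the resting level, had 910, 844 and 932 normalized counts in the controls and 1514, 1525 and 1419 in KO. Replicates of each group agreed closely and the groups were well apart. The log2 fold change was 0.73 (SE 0.10, limma adjusted p = 9.0e-05). It was 0.49 with libraries scaled to the same total and 0.40 with that total taken without Rn45s, and in both it stayed higher without reaching 1.5-fold. Stim1 spans chr7:102267806-102437319 and Stim2 chr5:53998499-54121057.

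Orai1, the pore of the classical store-operated calcium current, had the largest rise of the 10 genes. Its values were 815, 809 and 626 normalized counts in the controls and 1656, 1598 and 1310 in KO. The lowest KO library was well above the highest control. The mean rose from 750 ± 108 to 1521 ± 186 (± SD over 3 libraries per group), a log2 fold change of 1.02 (SE 0.14, limma adjusted p = 0.00010). Orai2, a relative that is abundant in the brain and dampens the current of Orai1 in some cells, had 658, 766 and 862 normalized counts in the controls and 842, 1176 and 814 in KO. The groups overlapped, and KO replicate 2 stood above the other KO libraries. Its log2 fold change of 0.30 was not called (95% confidence interval −0.06 to 0.66, limma adjusted p = 0.138) and turned to −0.03 with the total taken without Rn45s. The interval reaches past 1.5-fold. Orai1 (chr5:123015074-123030456) and Orai2 (chr5:136147459-136170713) share a chromosome with Stim2. Orai3, the remaining gene of the family and not among the 10, rose as well, from 537 ± 71.6 to 1220 ± 63.7 normalized counts (± SD over 3 libraries per group, log2 fold change 1.19, limma adjusted p = 1.6e-05). Microglia and macrophage markers were higher in the same KO libraries, and their part in the rises of Stim2, Orai1, Orai3 and Itpr3 was not tested.

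**Figure D2:**
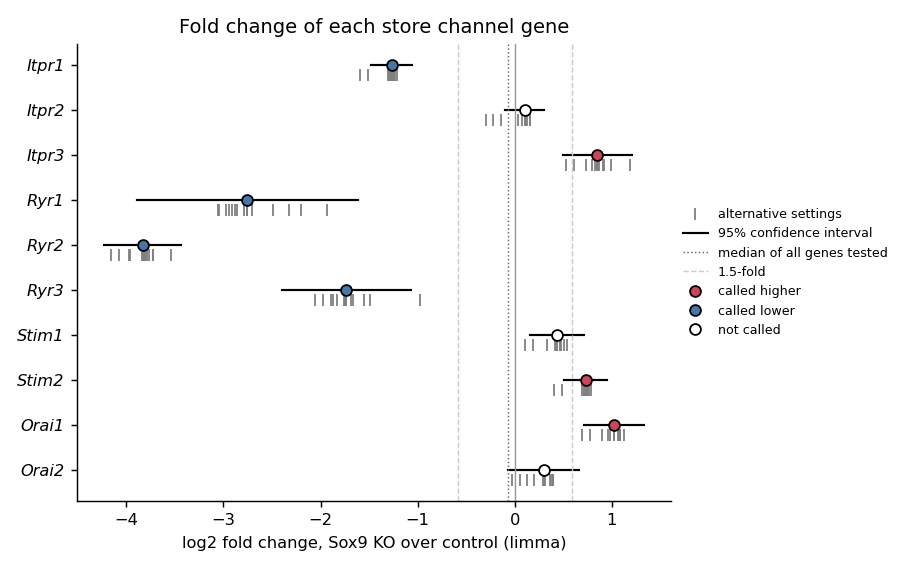
Log2 fold change of Sox9 KO over control for each gene (limma), with its 95% confidence interval; grey ticks under each point are the values under the alternative settings, and dashed lines mark 1.5-fold. Ryr2 lies at −3.83, farthest from 0, and Orai1 at 1.02 is the highest; the ticks of Itpr2 and Orai2 fall on both sides of 0.

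Levels were compared between genes per kilobase of exon, with the exon length from GENCODE, since long transcripts collect more reads. The annotation used for counting is not given in the sources used, so this order rests on lengths that may differ from those counted. In the controls Itpr2 was highest (352 ± 13.5 normalized counts per kb, SD, n = 3), next to Orai1 (327 ± 46.9), and the libraries of these neighbours overlapped. Stim2 (174 ± 8.86), Orai2 (125 ± 16.8) and Itpr1 (109 ± 4.52) followed, the last 2 overlapping. Below them were Stim1 (67.2 ± 8.56) and Ryr2 (58.7 ± 9.31), which also overlapped, then Itpr3 (34.9 ± 2.90), Ryr3 (9.66 ± 3.01) and Ryr1 (2.26 ± 0.80). A release channel and an entry channel thus headed the controls at levels that did not differ beyond their spread.

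In KO the order was led by Orai1 (663 ± 80.8 normalized counts per kb, SD, n = 3), above Itpr2 (378 ± 33.2) in every library, and by Stim2 (289 ± 11.3). Itpr1 went from the fifth place to the seventh, at 45.3 ± 2.19, below Itpr3 at 63.5 ± 11.0. Ryr2 (4.10 ± 0.77), Ryr3 (2.83 ± 0.67) and Ryr1 (0.312 ± 0.16) were at the end. The libraries of Ryr2 and Ryr3 nearly met, with 3.48 in the lowest library of Ryr2 and 3.47 in the highest of Ryr3.

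Shares within a subfamily do not depend on a scaling by 1 factor per library, and they were not computed after quantile normalization. With 3 libraries against 3, the exact two-sided permutation test used for them cannot give a p below 0.1, so that no share can pass 0.05. Among the IP3 receptors, Itpr2 held 71.5%, 70.5% and 70.9% of the summed level per kb in the controls and 77.1%, 77.4% and 78.6% in KO. Itpr1 had between 20.99% and 22.7% in control and 9.33% ± 0.44 in KO (± SD over 3 libraries), and Itpr3 went from 7.03% ± 0.56 to 12.98% ± 1.17. None of these 3 shares overlapped between the groups. The second place among the IP3 receptors, held by Itpr1 in every control, was held by Itpr3 in every KO library.

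Among the ryanodine receptors, Ryr2 held 85.9%, 83.6% and 80.4% in the controls and 60.4%, 55.8% and 54.4% in KO. Ryr3 took up the difference, with 13.5% ± 2.08 in control and 39.0% ± 1.74 in KO (± SD over 3 libraries per group), since its level fell less than that of Ryr2. Ryr1 had 3.16% ± 0.67 and 4.12% ± 1.52, which overlapped (exact permutation p = 0.4). Stim2 was the larger part of its pair in every library, with 72.2% ± 3.20 in control and 76.2% ± 0.27 in KO, and control replicate 3 alone, at 75.9%, came near the KO libraries. Orai1 held between 65.8% and 76.7% of the Orai1 and Orai2 level in the controls and between 78.2% and 83.9% in KO. In the 9 genes other than Ryr1 the shares of the groups did not overlap and the exact permutation p was 0.1, the smallest it can give (0.11 adjusted over the 10 shares tested). Shares were not computed for other genes, so this count has no background beside it and nothing is read from it. The shares of a subfamily add up to the whole, so these are not independent results. Those of Stim1 and Stim2 mirror each other, as do those of Orai1 and Orai2.

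**Figure D3:**
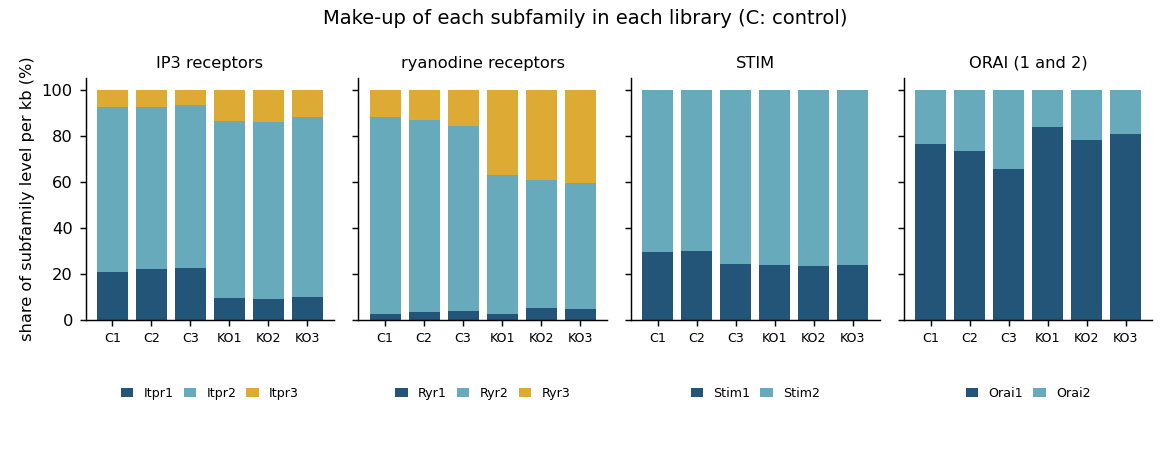
Share (%) of each gene in the summed level per kb of its subfamily, 1 bar per library (C1 to C3 control, KO1 to KO3 Sox9 KO). The Itpr1 part shrinks from at least 20.99% to at most 9.78%, the Ryr3 part widens from 13.5% to 39.0%, and the STIM and ORAI bars move less.

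Levels were also summed over each subfamily, on the deposited values only. Unlike shares, such sums depend on the scaling of the libraries. The IP3 receptors had 496 ± 15.8 normalized counts per kb in control and 487 ± 45.9 in KO (± SD over 3 libraries per group, exact permutation p = 0.9). Such a p at 3 libraries against 3 does not show equal levels. With libraries scaled to the same total, the log2 fold changes of Itpr1, Itpr2 and Itpr3 were −1.51, −0.14 and 0.61. That of the ryanodine receptors went from 70.6 ± 12.6 to 7.25 ± 1.57. As a share of the 6 release channel genes together, the ryanodine receptors had 12.2%, 10.9% and 14.2% in the controls and 1.19%, 1.63% and 1.56% in KO. STIM sums were 242 ± 8.89 and 380 ± 14.5, and ORAI sums 452 ± 33.4 and 818 ± 99.5. For the ryanodine, STIM and ORAI sums the groups did not overlap, and the exact permutation p was 0.1, the smallest it can give. In the KO libraries, then, nearly all release channel RNA per kb was that of IP3 receptors, most of it Itpr2.

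The scaling of the libraries mattered for the calls of several genes. Of all genes called, 56.4% were lower on the deposited values, 43.2% after quantile normalization, 67.8% with libraries scaled to the same total and 71.5% with that total taken without Rn45s. These settings moved the median of all genes tested by 0.27, −0.23 and −0.31. The totals scale each library by 1 factor, while quantile normalization moves genes unequally. Relative to the median of all genes under the same setting, Itpr2 stood at 0.17 on the deposited values and at −0.50, 0.15 and 0.15 under these settings in turn. Ryr2 stood at −3.77 relative to that median on the deposited values and between −3.78 and −3.74 under the others, and Orai1 at 1.09 and between 0.86 and 1.07. Ryr3 and Ryr1 stood at −1.67 and −2.69 on the deposited values and at −1.18 and −2.14 after quantile normalization.

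Beyond the channels, 9 lists of genes that feed, regulate or empty the store were read from the same fit. Of 101 genes tested, 40 were called lower and 22 higher, beside 28.8% and 22.2% of all genes, with a median log2 fold change of −0.37. IP3 production, the Gq alpha subunits and phospholipases C, had 7 of 14 lower and 3 higher (median −0.94). The phospholipases Plcb2 and Plcg2, known from blood and immune cells, rose from 823 ± 110 to 4248 ± 459 and from 1209 ± 95.5 to 3956 ± 516 normalized counts (± SD over 3 libraries per group). The Gq subunit Gnaq, with the highest mean of the list, had a log2 fold change of 0.58 (limma adjusted p = 0.0010) just under 1.5-fold, and it was called by edgeR (0.62) and without control replicate 1 (0.66), control replicate 2 (0.61), KO replicate 1 (0.60) or KO replicate 3 (0.59). Of 8 genes of IP3 removal, 4 were called lower and none higher (median −0.64). The list had 2 lower without control replicate 1, 1 lower and 1 higher after quantile normalization, and 7 lower with the same total without Rn45s. Its members of highest mean, the IP3 kinase Itpkb and the phosphatases Impa1 and Inpp5b, were not called, with log2 fold changes of −0.48, −0.32 and −0.27, though Itpkb was called with libraries scaled to the same total (−0.72), and all 3 with that total taken without Rn45s (−0.81, −0.64 and −0.59).

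Partners of the IP3 receptors split into 4 higher and 3 lower of 12 (median 0.16). Ahcyl1, which encodes the IP3 receptor inhibitor IRBIT, fell from 13051 ± 530 to 4811 ± 45.8 normalized counts (± SD over 3 libraries per group, log2 fold change −1.44, limma adjusted p = 1.5e-07), and its relative Ahcyl2 fell by 0.92 on the log2 scale. Grina had a log2 fold change of −0.56 and was not called, and it was called without KO replicate 2 (−0.63), without control replicate 3 (−0.62) and under each of the 3 other scalings (−0.96 to −0.80). Of 15 tested partners of the ryanodine receptors, 6 were lower and 3 higher (median −0.58), with 3 lower without KO replicate 1 or without control replicate 3, and 10 lower and 1 higher with the same total without Rn45s. Asph, whose locus also encodes junctional proteins of the ryanodine receptor complex, rose by 1.12 on the log2 scale (limma adjusted p = 7.5e-07). Calm2, a calmodulin gene, was called higher by 0.78 on the log2 scale, and it was not called with libraries scaled to the same total (0.54) or after quantile normalization (0.29).

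For store-operated entry, 6 of 11 partner genes were lower and 4 higher (median −0.93), with 2 higher under the same total without Rn45s. Saraf, the brake on STIM1, was not called, with 4161 ± 309 and 4119 ± 334 normalized counts (± SD over 3 libraries per group, log2 fold change −0.01, SE 0.10). Tmem110, which helps STIM1 reach its contacts, rose by 0.64 on the log2 scale (limma adjusted p = 0.0054) and was under 1.5-fold without KO replicate 1 (0.58) and with libraries scaled to the same total (0.40). Of 11 tested genes of refilling and buffering, 3 were lower and 2 higher (median −0.37). None was higher without control replicate 1 or under any of the 3 other scalings, and 5 were lower with the same total without Rn45s. The SERCA pump Atp2a2 fell from 12515 ± 40.6 to 5690 ± 66.9 normalized counts (± SD over 3 libraries per group), a log2 fold change of −1.14 (limma adjusted p = 5.9e-07) that stayed between −1.62 and −1.08 under all settings tried. The chaperone Hspa5 rose by 0.70 (limma adjusted p = 0.0028), was at 0.52 without control replicate 1, 0.46 with libraries scaled to the same total and 0.05 after quantile normalization, and Canx had 0.31 and was not called.

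Calcium removal across the plasma membrane and Golgi had 6 of 9 genes lower and 2 higher (median −1.81). The 2 that rose were Atp2b1, a plasma membrane calcium pump, by 0.80 (limma adjusted p = 2.3e-05), and Atp2c1, a Golgi pump, by 0.75 (limma adjusted p = 4.0e-05). Neither reached 1.5-fold after quantile normalization, at 0.31 and 0.39, or with libraries scaled to the same total, at 0.56 and 0.51. The exchanger Slc8a1 had a log2 fold change of 0.37 and was not called. Of 9 other organelle calcium channels, 3 were higher and 1 lower (median 0.40), with 2 lower under the same total without Rn45s. The lower one, the endolysosomal channel Tpcn1, had a log2 fold change of −0.60 and was not called without KO replicate 1 (−0.57), KO replicate 3 (−0.55), control replicate 1 (−0.51) or control replicate 2 (−0.57), nor by edgeR (−0.56). Tmbim6, an ER calcium leak protein, had 0.44 and Pkd1 had 0.15, and neither was called. Among mitochondrial calcium genes, 4 of 12 were lower and 1 higher (median −0.25), with 2 higher after quantile normalization and none with the same total without Rn45s. Vdac1, the outer membrane channel, fell by 1.38 (limma adjusted p = 4.4e-07), while Vdac2 (−0.12) and Mcur1 (−0.15) were not called.

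**Figure D4:**
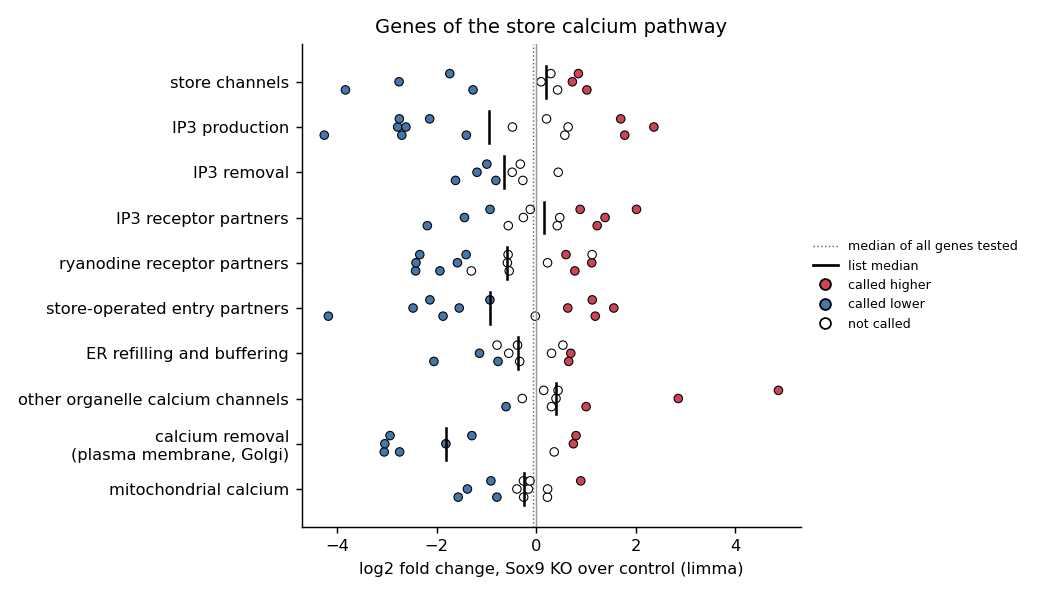
Log2 fold change of Sox9 KO over control (limma) for the 10 store channel genes and for each list of pathway genes, 1 point per gene, with the list median as a black line and the median of all genes tested as a dotted line. Calcium removal has the lowest median, −1.81, and other organelle calcium channels the highest, 0.40.

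Of the remaining marker lists, oligodendrocyte precursors had 5 of 5 markers called lower, oligodendrocytes 6 of 7, olfactory ensheathing cells 6 of 7, mural cells 3 of 6 and endothelial cells 3 of 6, with 1 endothelial marker higher. Border macrophages and monocytes had 4 of 8 lower and 2 higher, T and B lymphocytes none called of 6, with a summed level of at most 67.8 normalized counts in a library. Of the erythroid markers 4 of 5 were at 0 in all libraries, and the other was called lower. The part of these cells in the levels of the store channels was not tested.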

How the data were processed

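Values for each of 24421 gene symbols in 6 libraries, 3 control and 3 Sox9 KO, were used as deposited. The authors aligned reads to mm10 (STAR 2.5.0a), assigned them to genes with GenomicAlignments and scaled libraries with DESeq2 1.20.0. The deposited signal values are named RPM, but 100% of them in each library were whole multiples of 1 step within 0.01 read, so they are read counts over 1 size factor. Symbols of 27 rows are dates. The members and lists were chosen with earlier results of these data known. Genes with a mean of at least 1 (18413) were tested two-sided after adding 1 and taking log2, a scale that understates changes of low genes, using limma 3.58.1 (R 4.3.3; variance trend). Recovered reads were also tested with edgeR 4.0.16 and DESeq2 1.42.0, the design having assumed RPM. 1 read was worth between 0.395 and 1.58 normalized counts. Each library is 1 labelled sample, and p-values measure the spread between these. The limma, edgeR and DESeq2 fits were first run on simulated data, in which far fewer genes were changed than were called here. The permutation test was not. Exon lengths came from GENCODE M21 and promoters from RefSeq. The text names the 10 genes, Sox9 and the 3 genes of highest mean in each pathway list, with others marked, and a few items are not reported here. Orai3 belongs to a pathway list, and Aven was added for its overlap. The alternatives were the pseudocount, filter, scaling, variance trend, replicate block, tool, thresholds and leaving out each library.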

Additional observations from a re-analysis of the deposited data

How the results depend on the processing

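Itpr1, Ryr1, Ryr2, Ryr3 and Orai1 kept their direction and call under all 19 alternatives, Itpr3 lost its call under 1 scaling and Stim2 under 2. With each library left out, 4 of the 10 genes were called lower and 3 higher each time. Of the 18413 genes tested, 4929 to 5129 were called lower and 3819 to 4035 higher in these fits. Under libraries scaled to the same total without Rn45s, 1 of the 10 genes was called higher, as were 12 pathway genes and 2630 of all genes. Itpr2 reversed under quantile normalization (−0.29), the same total (−0.14) and the same total without Rn45s (−0.23), and Orai2 under the last (−0.029). Among pathway genes that were not called, the sign turned for Saraf with edgeR (0.037) and with libraries left out (−0.081 to 0.025), for Canx under quantile normalization (−0.33) and the total without Rn45s (−0.016), for Tmbim6 (−0.10) and Slc8a1 (−0.067) under quantile normalization, and for Pkd1 under the same total (−0.089) and without Rn45s (−0.17). The cause was not tested. Without gene length, the differences in subfamily share in percentage points moved to −14.7 for Itpr1, 10.7 for Itpr2, 3.96 for Itpr3, −21.7 for Ryr2 and 20.6 for Ryr3, from −12.7, 6.73, 5.94, −26.4 and 25.5. With each library left out they ran from −13.2 to −12.3, 6.28 to 7.01, 5.56 to 6.62, −28.2 to −25.1 and 24.5 to 26.6 in the same order. The correlations of deviations at the same replicate number were −0.05, −0.01 and −0.01. They show no pairing by number, and they cannot show whether libraries were prepared together. With the replicate block 4 of the 10 genes were called lower and 3 higher, as were 5227 and 4048 of all genes. Ryr1, with 3 to 25 reads in a KO library, is the gene that depth limits most.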

Other observations

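Some pathway genes of lower mean were singled out after their values were seen, and are given as values. On the list of store-operated entry partners, the TRPC channel genes Trpc1, Trpc4, Trpc5 and Trpc6 were each called lower in Sox9 KO, with log2 fold changes of −2.13, −1.87, −1.54 and −2.47. Of the 17 other fits, Trpc5 lost its call in 1, quantile normalization.

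The phospholipase C gene Plcd4 had the largest fall on the list of IP3 production, from 1996 ± 165 to 105 ± 26.2 normalized counts (± SD over 3 libraries per group, log2 fold change −4.26). Mcoln2, an endolysosomal channel gene, had the largest rise of all pathway genes, from 18.02 ± 7.70 to 531 ± 51.5 normalized counts (± SD over 3 libraries per group, log2 fold change 4.87). Rcn2, an ER calcium-binding protein gene, fell from 13596 ± 373 to 3276 ± 160, and the plasma membrane pump genes Atp2b2 and Atp2b4 had log2 fold changes of −3.04 and −3.05 while Atp2b1 rose. Plcd4, Mcoln2, Rcn2, Atp2b2 and Atp2b4 were called the same way in all 17 other fits.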
